A study of Drosophila melanogaster with 164 samples.

Results

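The genes described here are 6 that receive or relay the steroid hormone ecdysone and the sesquiterpenoid juvenile hormone in Drosophila melanogaster: EcR, usp, Eip75B, tai, Met and Kr-h1. They were chosen by name, and the 6 were found by their FlyBase identifiers among the 7414 genes of the count table. The animals belonged to the Drosophila Genetic Reference Panel, whose inbred lines derive from an outbred population. The lines used carried no inversions and were picked to span a range of starvation resistance. Whole adults of 41 lines, kept for 4 days after emergence, were set against whole larvae of the same lines, taken from the food during the last larval instar once the first sibling had begun to wander. The larvae were not sexed, and the labels give no sex for the adults. Each line had 2 biological replicates per stage, and each library pooled between 2 and 31 animals, with a median of 17 in adults and 20 in larvae. The labels name no mutation or treatment.

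EcR and Usp are nuclear receptors that bind ecdysone as a pair and switch on a cascade of early genes, of which Eip75B, itself a nuclear receptor, is one. Met is a juvenile hormone receptor of the bHLH-PAS family; with the coactivator Tai it induces Kr-h1, a zinc finger factor that holds back metamorphosis in the juvenile. Tai was first known as a coactivator of the ecdysone receptor and so belongs to both pathways. In larvae, ecdysone pulses time the molts and pupariation. In adults, both hormones act on reproduction, and ecdysone also acts on behaviour and metabolism.

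The adult libraries held 2748964 to 20421026 counts over the genes of the table, and the larval libraries 2407244 to 26429404. The table holds only genes with at least 11 counts in every library. Both of the following checks touch the larval results. Counts were identical in larval DGRP787 replicate 1 and larval DGRP491 replicate 2; both were left out, so 82 adult and 80 larval libraries were analysed. Over 838 genes that differed strongly between adult lines, 76 of the 80 larval libraries resembled the adults of their own line most. Replicate 2 of DGRP882, of DGRP897 and of DGRP911, as labelled, resembled adults of another line among these 3, and DGRP367 replicate 1 those of DGRP804. They were kept under their labels, and results that change without the first 3 are given with both values.

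The genes lie on 4 chromosome arms (BDGP6 build, Ensembl annotation). EcR (FBgn0000546) spans 6087873 to 6169087 on the minus strand of 2R, and Eip75B (FBgn0000568) spans 17950953 to 18064696 on the minus strand of 3L. Both are long genes with several promoters, annotated with 6 and 7 transcripts. Usp is encoded by the compact gene usp (FBgn0003964) at 2038798 to 2042311 on the minus strand of X, where 265 of its 3038 exon bases overlap Actn on the same strand. Met (FBgn0002723) lies at 11616124 to 11621280 on the plus strand of X and overlaps no other gene. The gene tai (FBgn0041092) covers 9166778 to 9250211 and Kr-h1 (FBgn0266450) 6082603 to 6096498, both on the plus strand of 2L. Kr-h1 shares 4168 of its 5306 exon bases with CG45075 on the same strand, so its count depends on how shared reads were assigned and its level is uncertain. The table gives 1 count per gene, so isoforms such as those of EcR could not be told apart.

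Of these genes 5 differed between the stages, 4 being higher in adults and EcR higher in larvae; usp, the partner of EcR, did not pass the test. The share of all genes that passed was 92.8%, with 44.9% higher in adults and 47.8% higher in larvae, so passing is no mark of the hormone genes, and the sizes and directions carry the description. Expression is given as CPM, counts scaled to a common library total with TMM factors, and fold changes as log2 of adult over larva from the edgeR quasi-likelihood fit with line as a block. The median log2 fold change over all genes was -0.03, and the median absolute value was 0.63.

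EcR ranged from 19.6 CPM through a median of 36.9 to 76.7 in adults, and from 31.6 through 59.4 to 117 in larvae. The ranges overlapped, yet 19 adult libraries lay below every larval library and 14 larval libraries above every adult library. Its log2 fold change was -0.77 ± 0.06 (SE; adjusted p = 7.7e-26), or 1.70-fold lower in adults. The adult mean was below the larval mean in 39 of 41 lines, and among the exceptions DGRP796 was higher in adults by 0.33.

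The partner gene usp ranged from 23.0 through 34.6 to 48.3 CPM in adults, and from 26.4 through 35.4 to 51.2 CPM in larvae. The groups overlapped almost wholly. Its log2 fold change was -0.06 ± 0.04 (adjusted p = 0.103), with an interval from -0.13 to 0.01 (95%, normal approximation from the fitted SE), and the adult mean was the higher in 17 of 41 lines. Without the 3 larval libraries that resembled other lines it passed at -0.08 (adjusted p = 0.0386), and without replicate 1 of every line at -0.12 (adjusted p = 0.0263). A larger absolute fold change was found in 94.8% of genes.

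Per kilobase of exon, EcR lay below its partner usp at both stages, and the gap was wider in adults. The ratio of EcR to usp per kb was 0.322 in adults and 0.519 in larvae, from mean log2 ratios of -1.64 and -0.95. Exon length here joins the exons of all annotated transcripts, 9934 bases for EcR and 3038 for usp. If the expressed EcR transcripts lack some of these exons, EcR is placed too low, so the order of the 2 genes is uncertain. The log2 ratio in CPM, which is not corrected for length and serves here only to compare the stages, was 0.07 ± 0.34 in adults (SD, n = 82) and 0.76 ± 0.38 in larvae (SD, n = 80). These ratios describe RNA and are free of library scaling.

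Eip75B, the early ecdysone target, went the opposite way to the receptor gene. It ranged from 46.9 through 78.9 to 148 CPM in adults, and from 21.3 through 39.0 to 109 CPM in larvae. Below every adult library lay 67 of the 80 larval libraries. The log2 fold change was 0.94 ± 0.05 (adjusted p = 1.1e-34), 1.92-fold higher in adults, and the adult mean was higher in all 41 lines.

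The coactivator gene tai ranged from 48.7 through 82.5 to 160 CPM in adults, and from 25.5 through 47.4 to 136 CPM in larvae. Larvae reached well into the adult range, and 42 of 80 larval libraries lay below every adult one. Its log2 fold change was 0.72 ± 0.06 (adjusted p = 2.0e-21). The adult mean was higher in 39 of 41 lines, with DGRP59 the clearest exception at -0.58.

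Met, the juvenile hormone receptor gene, ranged from 16.7 through 24.8 to 42.1 CPM in adults, and from 7.13 through 12.5 to 39.5 CPM in larvae. The upper larval end was made by a single line, DGRP158, described below. The log2 fold change was 0.93 ± 0.05 (adjusted p = 1.2e-35), 1.91-fold higher in adults, and the adult mean was higher in 40 of 41 lines. In DGRP158 the adult minus larval difference was -0.50.

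Kr-h1, the target of Met, had the largest stage difference of the 6. It ranged from 6.12 through 16.7 to 33.5 CPM in adults, and from 4.46 through 7.08 to 12.5 CPM in larvae, where counts were low (12 to 246 per library, median 62.5). Above every larval library lay 64 of the 82 adult libraries. The log2 fold change was 1.19 ± 0.06 (adjusted p = 5.3e-37), 2.28-fold higher in adults, and higher in all 41 lines. In the edgeR test against a 2-fold change it alone passed (adjusted p = 0.00156), as did 15% of all genes in the adult direction and 11.7% in the larval direction. An adult mean above the larval mean in all lines, seen for Eip75B and Kr-h1, was found in 22.9% of all genes. None of the 6 separated the stages fully, which 7.46% of genes did with all adult libraries above and 3.63% with all larval libraries above.

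**Figure D1:**
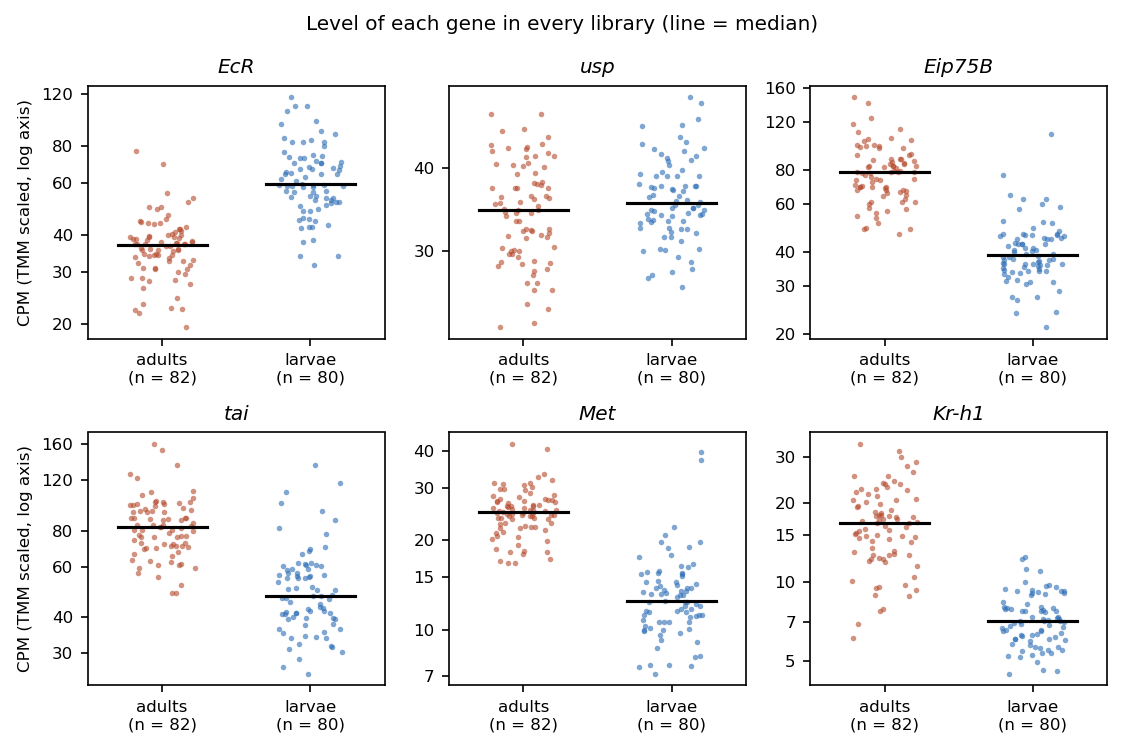
Level of each gene in every library, in TMM-scaled CPM on a log axis, with adults left (n = 82) and larvae right (n = 80); each point is a library and the black line the median. EcR is lower in adults (median 36.9 against 59.4 CPM), usp lies at about the same level, and the other genes are higher in adults; 2 larval Met libraries of DGRP158, at 39.5 and 37.3 CPM, stand above the other larvae.

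**Figure D2:**
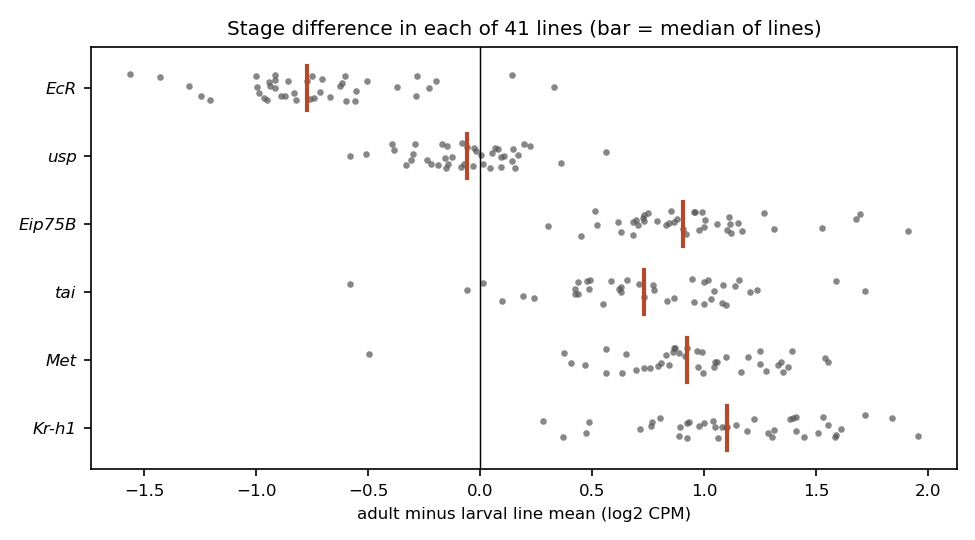
Adult minus larval mean of log2 CPM in each of the 41 lines for each gene; points are lines and the bar is the median of the lines. Eip75B and Kr-h1 are above 0 in all 41 lines, while Met has 1 line (DGRP158, -0.50) and tai 2 lines below 0.

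The animals were whole bodies, so fewer cells of a type and less RNA per cell cannot be told apart. Tissue markers differed between the stages. Of 17 ovary and female germ line markers 5 were in the table, summing to 1087 to 2424 CPM in adults and 128 to 427 CPM in larvae; of 15 testis markers 4 were in the table, at 2717 to 9429 CPM in adults and 12.9 to 1044 CPM in larvae; of 11 neuronal markers 7 were in the table, at 889 to 3525 CPM in adults and 233 to 618 CPM in larvae. None of 12 glue and late larval fat body markers was in the table. The RNA roX1, made by males, averaged 789 CPM in adults and 242 CPM in larvae. The part of these tissues in the stage differences was not tested. With log2 roX1 as a covariate the fold changes were -1.16 for EcR, 0.59 for Eip75B, 0.41 for tai, 0.50 for Met and 0.96 for Kr-h1, with adjusted p from 4.9e-15 to 0.00695, and 0.01 for usp. The covariate itself differed by stage, with a log2 fold change of 1.76 for roX1 and a higher adult mean in 41 lines. Stage and roX1 thus overlap, and these values are not stage differences at a known equal sex ratio. Sequencing pools did not cross stages, so stage and pool cannot be told apart; with the 7 adult and 12 larval pools as replicates the same 5 genes passed in limma-trend.

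Per kilobase of exon, levels can be set side by side between genes, with the exons of all annotated transcripts joined. The joined length runs from 3038 bases for usp, with 2 transcripts, to 13451 for Eip75B, with 7. A gene whose expressed transcripts use only part of its exons is placed too low, so the order between genes is uncertain. In adults usp was highest at 11.5 CPM per kb, followed by tai (7.08), Eip75B (5.93), Met (4.93), EcR (3.75) and Kr-h1 (3.21). In larvae usp was again highest at 11.9 CPM per kb, followed by EcR (6.38), tai (4.37), Eip75B (3.09), Met (2.64) and Kr-h1 (1.38). EcR was below tai, Eip75B and Met in adults and above them in larvae. By the number of lines, the least separated neighbours in adults were EcR and Kr-h1, whose log2 difference over lines was 0.26 ± 0.32 (SD) with EcR higher in 30 of 41 lines. In larvae they were Eip75B and Met, at 0.23 ± 0.35 with Eip75B higher in 35 of 41 lines. If all reads of Kr-h1 came from the 1.138 kb of exon that it does not share with CG45075, its level would be higher. It would then be 15.0 CPM per kb in adults and 6.41 CPM per kb in larvae, so its place is uncertain for this reason too.

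Differences between lines within a stage passed for EcR and Eip75B in adults and for tai and Met in larvae. In adults the adjusted p was 0.0413 for EcR and 0.0107 for Eip75B (edgeR F test over 40 line coefficients), so that 2 of 6 passed where 68.5% of all genes passed. In larvae it was 0.0277 for tai and 0.0121 for Met, again 2 of 6 where 46.6% of all genes passed. Neither usp nor Kr-h1 passed at either stage, and 0 of 6 passed at both, as 38.4% of all genes did. The intraclass correlation, which is the between-line part of the variance among libraries, was 0.23 ± 0.14 for EcR and 0.31 ± 0.14 for Eip75B in adults (jackknife SE over lines). It was 0.16 for tai, 0.11 for Kr-h1, 0.08 for Met and 0.03 for usp in adults, where the median over all genes was 0.39. In larvae it was 0.30 ± 0.38 for Met and 0.24 ± 0.16 for tai, and between -0.12 and -0.03 for the other genes, where the median over all genes was 0.29.

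Of these 4 calls, 3 no longer passed without a line at an extreme, and that of Met, described below, changed most. Extreme lines were chosen after seeing the data, and leaving them out narrows the spread between lines by itself. With any 1 line left out, the lowest intraclass correlation was 0.15 for adult EcR and 0.16 for larval tai. The adult Eip75B call stood without either extreme line: the highest, DGRP897, had a mean of 128 CPM, and the lowest, DGRP142, 53.5 CPM, with adjusted p of 0.0415 without DGRP897 and 0.0235 without DGRP142. For adult EcR, DGRP897 (57.3 CPM) and DGRP142 (22.6 CPM) were also the extremes, and the adjusted p was 0.0823 without DGRP897 and 0.108 without DGRP142. Larval tai was highest in DGRP59, with 78.2 and 118 CPM in its replicates against a median of 47.4, and the adjusted p was 0.0735 without that line (DGRP59). With sequencing pool as a factor EcR, Eip75B, tai and Met passed in adults (edgeR adjusted p = 0.00253, 0.00109, 0.0140 and 0.0113). In larvae Met still passed with this factor (adjusted p = 0.0280), and tai did not (adjusted p = 0.109).

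Met in DGRP158 lay near the median in adults and far from the other lines in larvae. In adults of this line Met stood at 27.4 and 26.9 CPM, near the adult median of 24.8, and ranked 11 among 41 lines. In larvae its replicates had 39.5 and 37.3 CPM, while the next larval library, DGRP153 replicate 1, had 22.2 CPM and the larval median was 12.5. Without DGRP158 the larval line test for Met gave an adjusted p of 0.655 and the intraclass correlation was -0.07. Kr-h1 in the DGRP158 larvae was at 7.84 and 5.32 CPM, within the larval range, so the log2 ratio of Kr-h1 to Met was -2.54, the lowest of all lines, where the larval mean over libraries was -0.83. Relative to the paralogue gce, which encodes the other juvenile hormone receptor, Met stood at a ratio of 0.389 in adults and 0.556 in larvae. These ratios are per kb of exon over all annotated transcripts, with the limit given above for EcR and usp. DGRP158 was the line with the highest larval ratio of Met to gce, at 0.51 on the log2 scale in CPM, not corrected for length.

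Replicates of 1 line could differ widely. In larvae of DGRP142, EcR was at 117 CPM in replicate 1 and 38.1 in replicate 2, Eip75B at 76.9 and 24.3, and tai at 82.0 and 30.3. In larvae of DGRP367, Eip75B was at 34.1 CPM in replicate 1 and 109 in replicate 2, the highest larval library; replicate 1 is the one that resembled DGRP804. In adults, DGRP897 replicate 1 was the highest of 82 libraries for EcR, usp, Eip75B, tai and Met. Some libraries at the extremes also stood apart in how expression depended on gene length. The slope of log2 CPM, relative to the stage mean, per doubling of exon length was 0.35 in adult DGRP897 replicate 1, the highest of the adults, and -0.35 in adult DGRP142 replicate 1, the lowest. In larval DGRP367 replicate 2 it was 0.17, rank 2 of 80.

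The interaction of line and stage passed for none of the 6 (edgeR F test over 40 coefficients), where 43.1% of all genes passed. The nearest were tai (edgeR adjusted p = 0.0699) and Met (edgeR adjusted p = 0.108). Without adjustment, 1 of the 6, tai, was under 0.05 in the edgeR test, as were at least the 43.1% of all genes that passed after adjustment. Lines that were high as adults were not shown to be high as larvae. Pearson's r between adult and larval line means over 41 lines passed for none of the 6 (100000 permutations, two-sided, adjusted over all genes), where 17.3% of all genes passed and the median r over all genes was 0.19. It was 0.24 for Kr-h1 (Spearman's rho 0.25, p = 0.136, adjusted p = 0.318), 0.19 for Eip75B (rho 0.23, p = 0.221, adjusted p = 0.429) and 0.16 for Met (rho 0.17, p = 0.311, adjusted p = 0.529). It was 0.11 for tai (rho 0.19, p = 0.513, adjusted p = 0.701), 0.04 for EcR (rho 0.10, p = 0.790, adjusted p = 0.889) and 0.01 for usp (rho 0.06, p = 0.932, adjusted p = 0.966). When the 2 lines most distant from the larval median were dropped, the r values lay between 0.04 for usp and 0.26 for Kr-h1, and none had an unadjusted p under 0.05. Within the main group of lines, joined by single linkage at a distance of 0.15 with each axis scaled to its range, r was 0.42 for Eip75B (36 lines, permutation p = 0.0111 without adjustment), 0.31 for EcR (31 lines), 0.31 for tai (30 lines), 0.14 for Met (39 lines), 0.10 for usp (35 lines) and 0.09 for Kr-h1 (32 lines), the last 5 with p from 0.0920 to 0.612. The group was picked on the same 2 axes that were then correlated, so these permutation p values do not allow for that choice. The share of all genes under the same cut is not given here. For tai, DGRP59 ranked 39 of 41 lines in adults and 1 in larvae. For Eip75B and for Kr-h1, DGRP367 ranked 6 in adults and 1 in larvae. Its larval replicates 1 and 2 were at 34.1 and 109 CPM for Eip75B and at 8.21 and 12.5 CPM for Kr-h1. The larval rank for Eip75B thus rests on replicate 2, and replicate 1 is the library that resembled DGRP804.

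**Figure D3:**
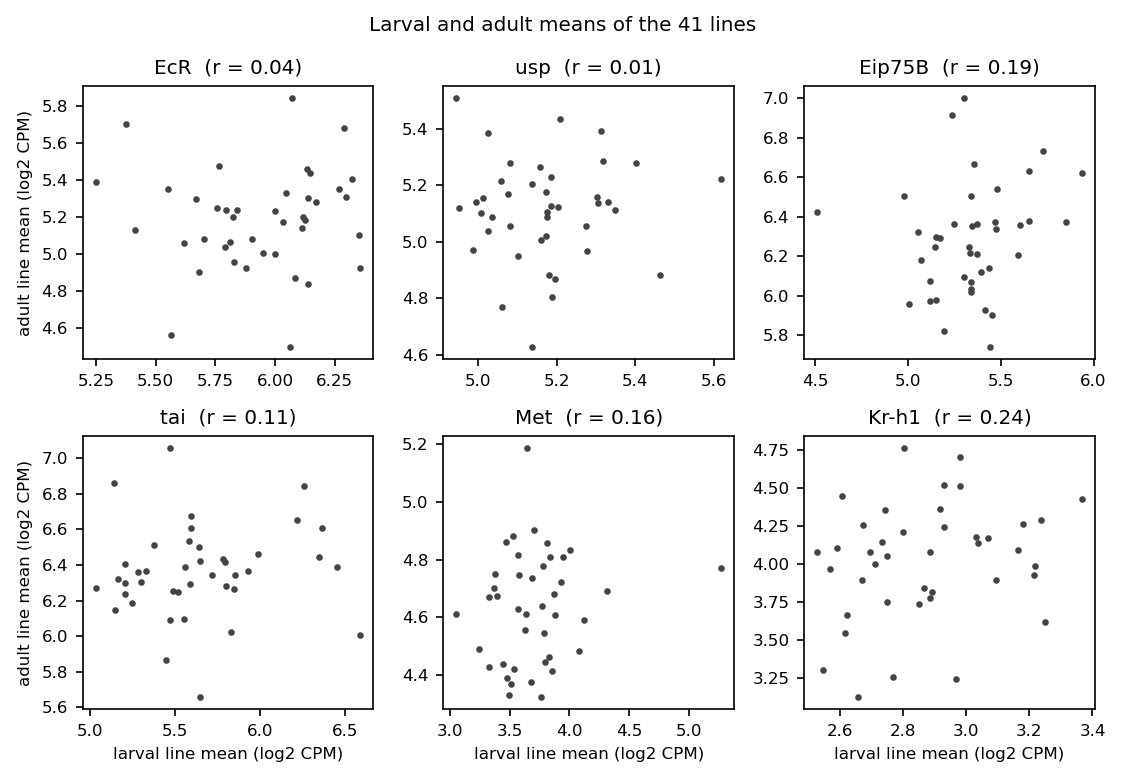
Adult line mean (vertical axis, log2 CPM) against larval line mean (horizontal axis, log2 CPM) for each gene; each point is 1 of 41 lines. The clouds show no clear slope (r from 0.01 for usp to 0.24 for Kr-h1), and DGRP158 stands alone at the right of the Met panel.

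Among themselves the 6 genes varied together across lines, more tightly in adults by the size of r. Over the 41 line means r was positive for every pair, from 0.32 to 0.78 in adults (median 0.60) and 0.17 to 0.60 in larvae (median 0.37). In a permutation test with Benjamini-Hochberg adjustment over 30 relations, 14 of 15 pairs passed in adults and 10 of 15 in larvae. The lowest r that passed was 0.37 in adults and 0.34 in larvae. Of all pairs of genes in the table, 6.51% in adults and 9.46% in larvae had an r at least as high as the lowest pair that passed. These shares are not matched for exon length, on which more is said below. Counted from the gene of a pair listed first above, 0.55% (Eip75B with tai) to 16.3% (usp with Kr-h1) of genes had a higher r in adults. In larvae this share ran from 1.93% (usp with Eip75B) to 29.7% (EcR with usp). The difference in r between stages was not tested.

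The tightest adult pairs were among EcR, Eip75B, Met and tai, genes of both pathways: EcR with Eip75B had r = 0.78 (rho 0.73), EcR with Met 0.78 (rho 0.80), Eip75B with tai 0.76 (rho 0.67) and EcR with tai 0.74 (rho 0.63), each at an adjusted p of 4.3e-05. In larvae EcR with Kr-h1 had the highest r at 0.60 (rho 0.60, adjusted p = 0.000112), followed by Eip75B with tai at 0.58 (rho 0.62) and EcR with Eip75B at 0.56 (rho 0.56). EcR with Met had 0.20 in larvae (adjusted p = 0.220) and EcR with tai 0.25 (adjusted p = 0.129). The receptor partners EcR and usp had r = 0.47 in adults (rho 0.43, adjusted p = 0.00364) and 0.19 in larvae (rho 0.20, adjusted p = 0.249). Without the 2 lines farthest in EcR the adult value was 0.29 (adjusted p = 0.0937). Met and its target Kr-h1 had r = 0.37 in adults (rho 0.26, adjusted p = 0.0234) and 0.17 in larvae (rho 0.30, adjusted p = 0.287), and the adult pair did not pass by rho (adjusted p = 0.104). With the 2 farthest lines left out of each pair, 11 adult and 7 larval pairs passed.

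The genes were also correlated between replicates of 1 line. Over the differences between replicates, 12 of 15 pairs passed in adults (median r 0.55, 41 lines) and 13 of 15 in larvae (median r 0.46, 39 lines). Of all pairs of genes in the table, 8.37% in adults and 14.3% in larvae had an r over these differences at least as high as the lowest pair that passed. These shares too are not matched for exon length. EcR with Met reached 0.88 and Eip75B with tai 0.87 in adults, and Eip75B with tai 0.75 in larvae.

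Properties of the libraries moved with these genes. Over adult line means the length slope correlated with EcR at r = 0.83, tai at 0.83, Eip75B at 0.77, Met at 0.69, Kr-h1 at 0.62 and usp at 0.46 (adjusted p at most 0.0196 over 84 relations). In larvae r with the length slope ran from 0.29 for usp to 0.66 for Eip75B, and all but usp passed. The slope is itself computed from log2 CPM against exon length, so long genes correlate with it by construction: an r at least as high as the lowest of these genes that passed was found in 17.6% of all genes in adults and 15.8% in larvae, and among the 1151 genes with at least 5 kb of exon in 75.6% in adults and 58.7% in larvae. Of the 6 genes, usp alone is shorter than that. The summed neuronal markers followed EcR (r = 0.81) and Met (0.74) in adults, and the other genes at 0.41 to 0.56, whereas in larvae r was 0.02 to 0.18. The RNA roX1 correlated with Met in adults (r = 0.44, adjusted p = 0.0196), the total count with EcR in adults (r = -0.45, adjusted p = 0.0188) and the summed testis markers with EcR in larvae (r = 0.39, adjusted p = 0.0422). The part of neurons, sex ratio and depth in the pair correlations was not tested apart from roX1, with which regressed out 23 of 30 pairs passed. The share of counts in the 100 most abundant genes correlated negatively in larvae with Kr-h1 (r = -0.56, adjusted p = 0.00118), Eip75B (r = -0.43, adjusted p = 0.0196) and EcR (r = -0.42, adjusted p = 0.0275). After the length slope and this share were regressed out of the line means, none of the 30 pairs passed: the highest were usp with Eip75B in adults (r = 0.47, adjusted p = 0.0607) and Eip75B with tai in larvae (r = 0.42, adjusted p = 0.0607). At an unadjusted p under 0.05 in the permutation test, 8 of the 30 were past. The share of all pairs of genes past it after the same regression is not given here, so this count has no background.

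**Figure D4:**
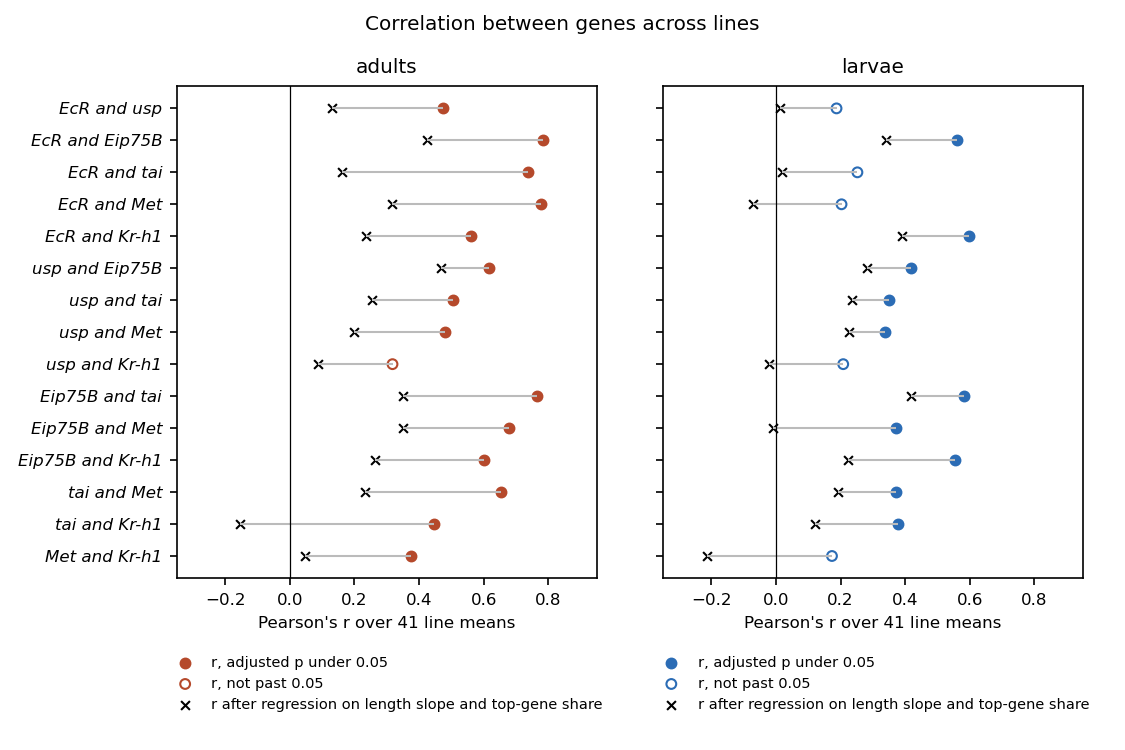
Pearson's r over 41 line means for each pair of genes, adults left and larvae right; filled circles passed an adjusted p of 0.05, open circles did not, and crosses give r after regression on the length slope and the share of the 100 most abundant genes. Of 30 pairs 24 are filled, and every cross lies to the left of its circle.

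By likeness of pattern, taken as the lower of the adult and larval r over line means, the nearest genes to each of the 6 lay outside the set. They were picked as the highest among all genes of the table, without regression on the length slope and top-gene share. Whether these likenesses remain after that regression was not tested. EcR was most like Ten-m, a teneurin cell surface protein (r = 0.79 in adults and 0.77 in larvae), then the zinc finger genes crol (0.87 and 0.75) and hang (0.75 and 0.76). Eip75B was most like Atx2 (0.74 and 0.76), Sin3A (0.78 and 0.72) and Spt20 (0.72 and 0.77), of which Sin3A encodes a corepressor scaffold. The nearest to tai were raptor (0.78 and 0.80), Spt6 (0.78 and 0.76) and Gapvd1 (0.75 and 0.75). For usp they were larp, crm and svp, the last another nuclear receptor gene, with lower values of 0.55, 0.53 and 0.52. For Met they were CG32264, syd and mura at 0.59, 0.59 and 0.59, and for Kr-h1 Ten-m, RhoGAPp190 and FBgn0265434 at 0.62, 0.62 and 0.60. Among the 6, the nearest hormone gene to Kr-h1 was EcR, rank 12 by this measure, while Met ranked 1110.

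Other genes of the pathways were described from 4 lists. A gene under 11 counts in any library is not in the table, so listed genes nearly silent at 1 stage cannot enter these splits. Of 17 genes for ecdysone synthesis and inactivation 9 were in the table. Of these, 3 were past the threshold on the adult side and 4 on the larval side, and 2 were not past it (median log2 fold change -0.00). The largest were shd, which makes the active hormone 20-hydroxyecdysone, at 8.58 CPM in adults and 138 CPM in larvae (log2 fold change -4.01 ± 0.06, adjusted p = 9.9e-94), Oatp74D, an ecdysone importer (-1.66 ± 0.04), and the sterol carrier gene Npc2a (-0.99 ± 0.06). Of 22 ecdysone response genes 11 were in the table, of which 4 were past on the adult side, 4 on the larval side and 3 not past (median 0.00). The early gene br stood at 13.4 CPM in adults and 137 CPM in larvae (-3.28 ± 0.09), Eip55E at -1.16 ± 0.04, and ftz-f1, a competence factor that follows the ecdysone pulse, at 38.6 CPM in adults and 12.1 CPM in larvae (1.68 ± 0.05). The early ecdysone genes br and Eip75B thus lay on opposite sides. Eip74EF, a further listed response gene named here for comparison and not by size, lay on the larval side with br. It stood at 24.7 CPM in adults and 49.5 CPM in larvae (-0.98 ± 0.07).

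The table held all 16 listed receptor cofactors and chaperones, 10 of them past on the adult side, 5 on the larval side and 1 not past (median 0.57). The Mediator subunit gene skd was higher in adults (1.61 ± 0.05), while Chd64 and Fkbp39, whose products bind juvenile hormone response elements, were lower in adults (-1.66 ± 0.04 and -1.52 ± 0.04). The paralogue gce, named here for its kinship with Met and not by the rule, was at 74.2 CPM in adults and 26.9 CPM in larvae (1.46 ± 0.04). The log2 ratio of Met to gce in CPM, which compares the stages and not the genes, was -1.55 ± 0.22 in adults and -1.04 ± 0.40 in larvae (SD over libraries). Of 13 genes for juvenile hormone synthesis, breakdown and response 10 were in the table, of which 3 were past on the adult side, 5 on the larval side and 2 not past (median -0.22). The largest were to (takeout), a carrier protein gene, at 147 CPM in adults and 12.6 CPM in larvae (3.51 ± 0.11), the epoxide hydrolase gene Jheh3 (-2.34 ± 0.06) and the juvenile hormone inducible gene JhI-26 (-2.06 ± 0.05). These counts stand against 44.9% of all genes higher in adults and 47.8% higher in larvae.

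**Figure D5:**
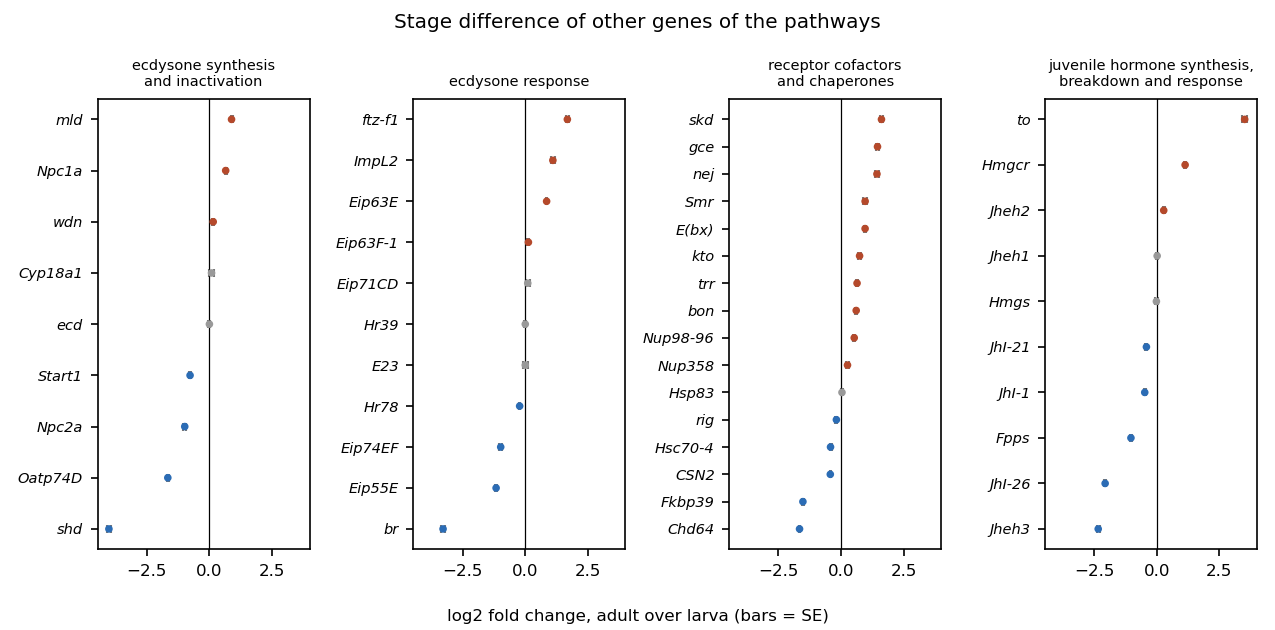
Log2 fold change of adult over larva for the genes of the 4 pathway lists; bars are SE, mostly smaller than the points, with red past the threshold and higher in adults, blue past it and higher in larvae, and grey not past it. The lists spread to both sides of 0, from shd at -4.01 to to at 3.51.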

How the data were processed

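RNA of whole animals was sequenced from polyA-selected, stranded libraries, and the authors deposited unnormalised counts, with 7414 genes in rows and 164 libraries in columns. Names of tools (FastQC, Trimmomatic, STAR) and builds (BDGP6, dm6) come from the submitters' processing notes, with no versions; the counting tool and its strand setting are not given in the sources used here. Groups came from the sample labels, which call the replicates biological. Total counts ranged from 2407244 to 26429404 per library.

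Counts were TMM-scaled in edgeR 4.0.16 (R 4.3.3); a filter of 1 CPM in 41 libraries of a stage removed no gene. Stage was tested by a quasi-likelihood F test in which line was a block, and by a 2-fold test (glmTreat), and lines within a stage and the line-by-stage interaction with F tests, adjusted by Benjamini-Hochberg over all genes at 0.05. Line means are log2 CPM with a prior count of 2; correlations used 100000 permutations, whose smallest p is 1e-05. Alternatives used DESeq2 1.42.0 and limma 3.58.1. Correlations were computed in Python 3.11.15 with numba 0.67.0, numpy 2.4.6, pandas 2.3.3 and scipy 1.17.1. The scripts were tested on simulated data.

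The genes and lists were chosen with earlier results of these data known. From each pathway list the 3 genes with the largest absolute fold change past the threshold were named, and for each of the 6 genes the 3 most alike. Gene positions came from the Ensembl BDGP6 annotation, in which 7349 identifiers were found. The plan had named all larval libraries; 2 identical columns were left out. Replicate numbers did not pair the samples.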

Additional observations from a re-analysis of the deposited data

How the results depend on the processing

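The stage direction of EcR, Eip75B, tai, Met and Kr-h1 and their calls were the same under every alternative run, with 5994 to 6892 genes past the threshold. With 1 replicate of each line left out, 6555 to 6682 genes and 5 to 6 of the hormone genes passed, usp being the sixth. Replicate numbers did not pair the samples (correlation of same-numbered deviations -0.371 to 0.304 over 39 lines, over 0.1 in 14); with line and replicate number as a replicate block 6843 genes and the same number of hormone genes, 5, passed, against 6877 and 5. Line calls among the hormone genes were 2 per stage. With pool as a factor they were 4 in adults, where 5245 genes passed against 5075, and 1 in larvae, where 2288 genes passed against 3453. In adults they were 3 under the DESeq2 likelihood ratio test, tai joining (adjusted p = 0.0153), where 5807 of all genes passed against 5075. With roX1 as a covariate they were also 3 in adults, Met joining (edgeR adjusted p = 0.0366), where 6016 of all genes passed. The calls over all genes thus rose under both settings as well. The hormone gene calls were 1 in adults without DGRP142 or without DGRP897, where 4809 and 4905 of all genes passed. They were 1 in larvae without DGRP59 or without DGRP158, where 3318 and 3359 of all genes passed. These alternatives were chosen after seeing the data. Fits of lines and of the interaction with 1 replicate left out could not be run, since no residual degrees of freedom remain. Genes with correlated line means across stages numbered 1283, 786 by Spearman's rho and 629 to 1388 with 1 replicate of every line, or the 3 larval libraries that resembled other lines, left out (805 without replicate 1); the hormone genes among them numbered 0 throughout. Of 30 pairs 24 passed, 23 to 24 with 1 replicate left out, 22 without adult DGRP897 replicate 1 and larval DGRP367 replicate 2 (chosen after seeing the data), and 0 with length slope and top-gene share regressed out, also chosen after seeing the data. There the r of tai with Kr-h1 in adults was -0.15 and that of Eip75B with Met in larvae -0.011. The cause of these changes was not tested. Depth limits Kr-h1 most, with a larval median of 62.5 counts.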
